A study of Mus musculus with 18 samples.

Results

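The AP-1 transcription factor genes described here are Fos, Fosb, Fosl1, Fosl2, Jun, Junb, Jund, Atf3, Maff and Batf, 10 of the 32285 genes in every mRNA matrix, picked by symbol. They were followed through the single cells of mouse skin in a study of skin stretched by an implant. All mice, control and expanded alike, were operated on: the back skin was cut near the tail and a tunnel was opened beneath the skin up to the neck. Mice of the expanded arm (labelled EXP) had an expander hydrogel stitched in place beneath it, whereas control mice (labelled CTRL) were closed up with no expander. Living cells were sorted from skin on days 1, 2 and 4, with 2, 2 and 1 mRNA libraries per arm, which gave 5 control and 5 expanded libraries. Each library held the pooled cells of several mice of 1 sequencing round. The control arm lacks an unexpanding implant, so the hydrogel as a foreign body and the stretch it exerts cannot be told apart. Strain, sex and age of the mice are not given in the sources used here.

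AP-1 proteins bind DNA as dimers, held together by a leucine zipper beside a basic region that contacts the DNA. Fos proteins need a Jun partner, Jun proteins can also pair with one another, and Atf3, the small Maf protein Maff and Batf are related factors that enter dimers of the same kind. Several members are immediate early genes, switched on within minutes by growth factors, injury or mechanical load without new protein synthesis, and in skin AP-1 is known for its part in keratinocyte differentiation and wound repair. The same genes also respond to the enzymatic digestion that releases single cells from tissue.

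Promoters are shown for 4 members whose transcripts moved in the comparisons below: Fos, Jun and Atf3, which were lower together in lymphatic endothelium, and Batf, which was lower in dendritic cells. The sequences are RefSeq promoters of build GRCm38.p6, from 250 bases before to 50 bases after the annotated start, and are printed 5′ to 3′ on the gene's strand. Capitals mark every match, on either strand, to 1 of the motifs searched.
Fos (chr12:85473640-85473939, plus strand): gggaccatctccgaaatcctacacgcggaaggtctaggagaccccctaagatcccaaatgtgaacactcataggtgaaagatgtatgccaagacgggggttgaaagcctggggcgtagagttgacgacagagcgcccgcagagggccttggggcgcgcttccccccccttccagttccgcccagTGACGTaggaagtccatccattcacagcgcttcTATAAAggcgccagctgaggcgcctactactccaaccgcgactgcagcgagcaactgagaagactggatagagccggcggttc
Jun (chr4:95052173-95052472, minus strand): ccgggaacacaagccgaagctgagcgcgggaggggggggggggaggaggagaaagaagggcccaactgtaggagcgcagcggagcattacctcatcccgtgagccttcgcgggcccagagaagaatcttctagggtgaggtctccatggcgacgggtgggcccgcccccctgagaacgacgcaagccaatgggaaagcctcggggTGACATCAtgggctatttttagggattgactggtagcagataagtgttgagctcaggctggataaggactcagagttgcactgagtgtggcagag
Atf3 (chr1:191183284-191183583, minus strand): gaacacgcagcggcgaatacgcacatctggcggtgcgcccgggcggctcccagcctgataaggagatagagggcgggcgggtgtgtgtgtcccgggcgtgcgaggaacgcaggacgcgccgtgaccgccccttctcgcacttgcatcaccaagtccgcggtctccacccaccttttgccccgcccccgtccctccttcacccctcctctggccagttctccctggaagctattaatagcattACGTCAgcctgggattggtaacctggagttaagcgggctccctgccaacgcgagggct
Batf (chr12:85686470-85686769, plus strand): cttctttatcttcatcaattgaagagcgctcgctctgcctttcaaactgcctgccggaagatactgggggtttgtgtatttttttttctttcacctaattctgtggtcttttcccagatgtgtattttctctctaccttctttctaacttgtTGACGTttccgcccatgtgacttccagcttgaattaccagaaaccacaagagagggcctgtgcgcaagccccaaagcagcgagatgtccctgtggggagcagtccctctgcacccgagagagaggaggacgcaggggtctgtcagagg
The motifs were the AP-1 site TGANTCA, the CRE-like site TGACNTCA, the CRE core TGACGT (which lies within some CRE-like sites), the CArG box that serum response factor binds, and a TATA box read as TATAAA or TATAAT. The CRE core lay 66 bases before the start of Fos, 8 bases before that of Atf3 and 98 bases before that of Batf. Jun held the CRE-like site 45 bases before its start, and Fos held a TATA box 33 bases before its start. Of the 32851 mouse promoters in the table, 7.81% held the AP-1 site, 8.83% the CRE-like site, 7.51% the CRE core, 1.63% the CArG box and 18.3% the TATA box. Among the other members, Junb held a TATA box, the second and the third of the 3 entries of Maff held the CRE-like site (the second also held the CRE core), and the windows of Fosb, Fosl2 and Jund held none of these letters. Neither the AP-1 site nor the CArG box was found in any member's window, and Fosl1 was not in the table. These matches are descriptions of the windows only.

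The libraries held 2468 to 9115 barcodes and 17726739 to 75470722 gene UMIs (unique molecular identifiers, each standing for 1 captured transcript). After filtering, 28391 control and 17001 expanded cells remained, and 41581 of them fell into 16 classes named from marker genes; the names below mean fibroblast-like, endothelial-like and so on, with the suffix left off. The remaining 3811 cells, in 7 of 40 clusters, stayed unnamed. The cluster called smooth muscle also carried pericyte markers, and the suprabasal keratinocyte cluster also carried basal and hair follicle markers. Pairs of libraries shared between 1 and 23 cell barcodes. The control library of day 2 round 1 had the fewest UMIs. Levels are UMIs of a gene as counts per 1e6 UMIs (CPM) summed over all cells of a class in a library, and 12 classes had at least 20 cells in at least 4 libraries per arm and were tested. Values per library are given in the order day 1 round 1, day 1 round 2, day 2 round 1, day 2 round 2, day 4. A pair is the control and the expanded library of the same day and round. For the day 1 round 2 control sample, the titles of the mRNA library and of the hashing library (the antibody tags that mark each mouse) look exchanged: the mRNA entry is titled as hashing. The arm and the day are the same in both entries, and libraries were assigned by library name, which the files match. Leaving out that control library or its expanded partner is among the fits reported below.

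In control skin each member had its own order of classes. Fos, the founding member and a classic immediate early gene, had a mean of 9113 ± 1451 CPM (SD, n = 5) in lymphatic endothelium and 8134 ± 2267 (SD, n = 5) in basal keratinocytes, and those 2 classes overlapped. At the other end stood macrophages at 1163 ± 291 (SD, n = 5) and sebaceous cells at 721 ± 99.0 (SD, n = 4), the only neighbours in the Fos order whose libraries did not overlap. Fosb was highest in mast cells (4738 ± 1500, SD, n = 5) and lymphatic endothelium (4573 ± 384, SD, n = 5), which overlapped, and again lowest in sebaceous cells (712 ± 49.1, SD, n = 4). Fosl1, which encodes Fra-1, a Fos protein known from migrating and cultured keratinocytes, ranged from 277 ± 108 (SD, n = 3) in satellite cells, 236 ± 60.0 (SD, n = 5) in suprabasal and 196 ± 44.7 (SD, n = 5) in basal keratinocytes down to 9.09 ± 4.77 (SD, n = 5) in T cells. Every pair of neighbours in the Fosl1 order overlapped. Fosl2, which encodes Fra-2, had the opposite end for T cells: at 681 ± 129 (SD, n = 5) they stood apart from the next class, neutrophils at 477 ± 28.6 (SD, n = 2), and melanocytes were lowest at 44.0 ± 9.06 (SD, n = 4), apart from sebaceous cells.

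The Jun family differed as much by class. Jun, the main partner of Fos, was 6437 ± 1087 CPM (SD, n = 5) in lymphatic endothelium and 179 ± 42.6 (SD, n = 5) in T cells, which stood apart from dendritic cells at 429 ± 150 (SD, n = 5). The order of Jun broke at 3 places where neighbouring classes did not overlap: below suprabasal keratinocytes (4135 ± 982, SD, n = 5), below satellite cells and below dendritic cells. Junb, whose product can oppose Jun, was highest in smooth muscle (4521 ± 420, SD, n = 5) and was 3236 ± 173 (SD, n = 5) in T cells, where Jun was lowest. Jund, the member usually described as constitutively expressed, ran only from 3349 ± 282 (SD, n = 5) in mast cells to 1005 ± 239 (SD, n = 4) in sebaceous cells.

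Atf3, a stress-induced factor of the ATF family, had 3 classes at the top: basal keratinocytes (4083 ± 793, SD, n = 5), suprabasal keratinocytes (3562 ± 1305, SD, n = 5) and lymphatic endothelium (3495 ± 1411, SD, n = 5). Those 3 overlapped one another and did not overlap smooth muscle, the next class, at 1907 ± 389 (SD, n = 5). T cells were lowest at 252 ± 108 (SD, n = 5), apart from satellite cells. Maff was highest in lymphatic endothelium (650 ± 328, SD, n = 5) and lowest in melanocytes (64.0 ± 19.1, SD, n = 4), with overlap between all neighbours.

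Batf, a factor known from T cells and dendritic cells, was 90.3 ± 31.5 CPM (SD, n = 5) in T cells, 72.8 ± 3.58 (SD, n = 2) in neutrophils and 63.9 ± 13.6 (SD, n = 5) in dendritic cells. Smooth muscle (37.2 ± 15.3, SD, n = 5) and macrophages (35.7 ± 5.57, SD, n = 5) followed, apart from mast cells, which were in turn apart from fibroblasts (7.98 ± 1.58, SD, n = 5). Basal keratinocytes stood at 0.204 ± 0.198 (SD, n = 5), from 3 UMIs in 1137 cells. Of the 10 members, Batf alone was below the count filter in some tested classes, 7 of the 12.

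**Figure D1:**
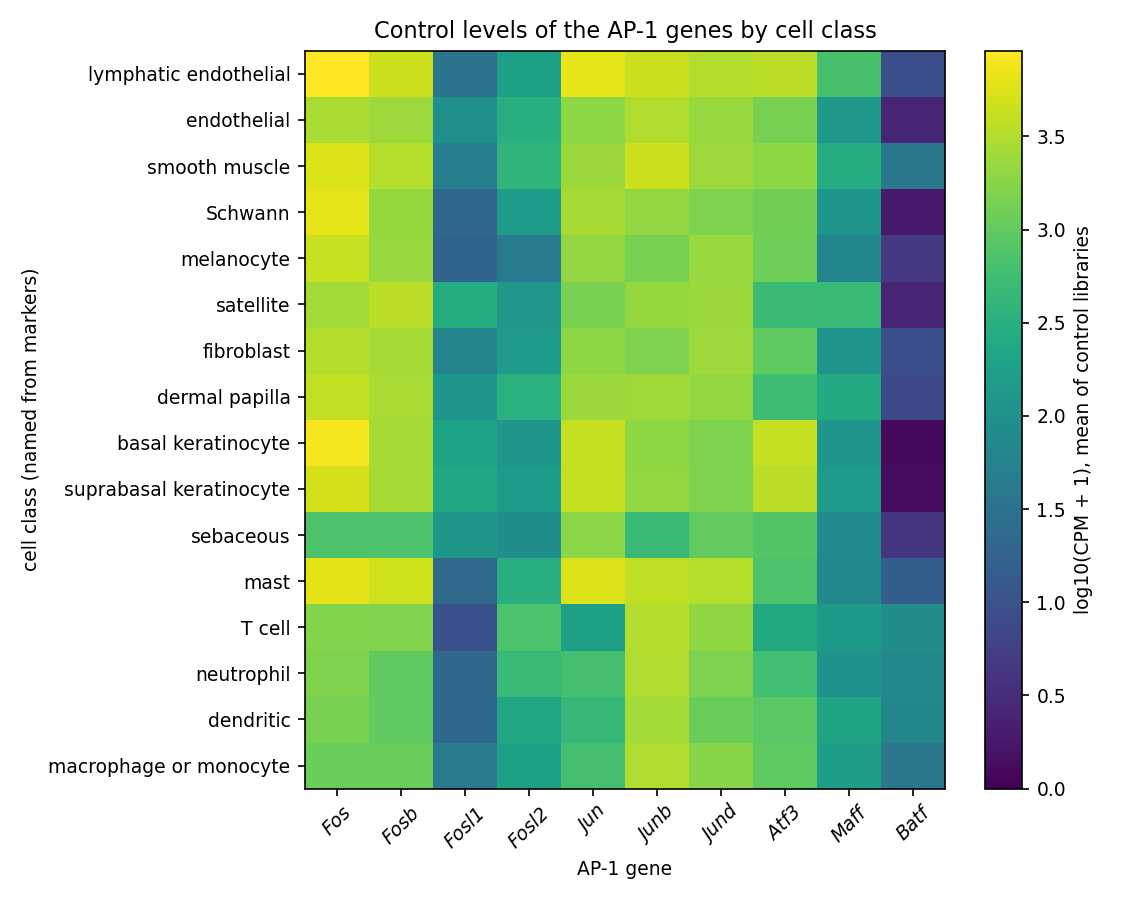
Control level of each AP-1 gene (columns) in the 16 named cell classes (rows), coloured by log10(CPM + 1) of the mean over control libraries. Rows for lymphatic endothelium are bright for Fos (9113 CPM) and Jun (6437 CPM), T cells are dark for Jun (179 CPM), and Batf reaches 90.3 CPM in T cells. CPM is not corrected for transcript length, so colours are read down a column, not across a row.

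Expansion was compared with control in each class with day as a covariate, and a call means an adjusted p under 0.05 over all genes tested in the class. Of 113 combinations of a member and a class tested, 34 were called. Of these, 33 were lower in expanded skin, spread over 7 classes, and 1 was higher, Fos in dermal papilla cells. The share of all tested genes called in either direction ran by class from 0.246% in T cells to 34.5% in fibroblasts. In the 7 classes, the share of all genes lower ran from 5.06% in lymphatic endothelium to 17.6% in fibroblasts. All 34 were also called by DESeq2 and with day and round as a replicate block. The 33 include Batf in smooth muscle, which passed the count filter through its control libraries alone, so its call is given as a description. Fold changes are on TMM-scaled counts, so they need not equal the ratio of CPM means. When each cell was thinned to 2000 UMIs, 26 of the 32 called combinations that could be refitted kept their call.

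**Figure D2:**
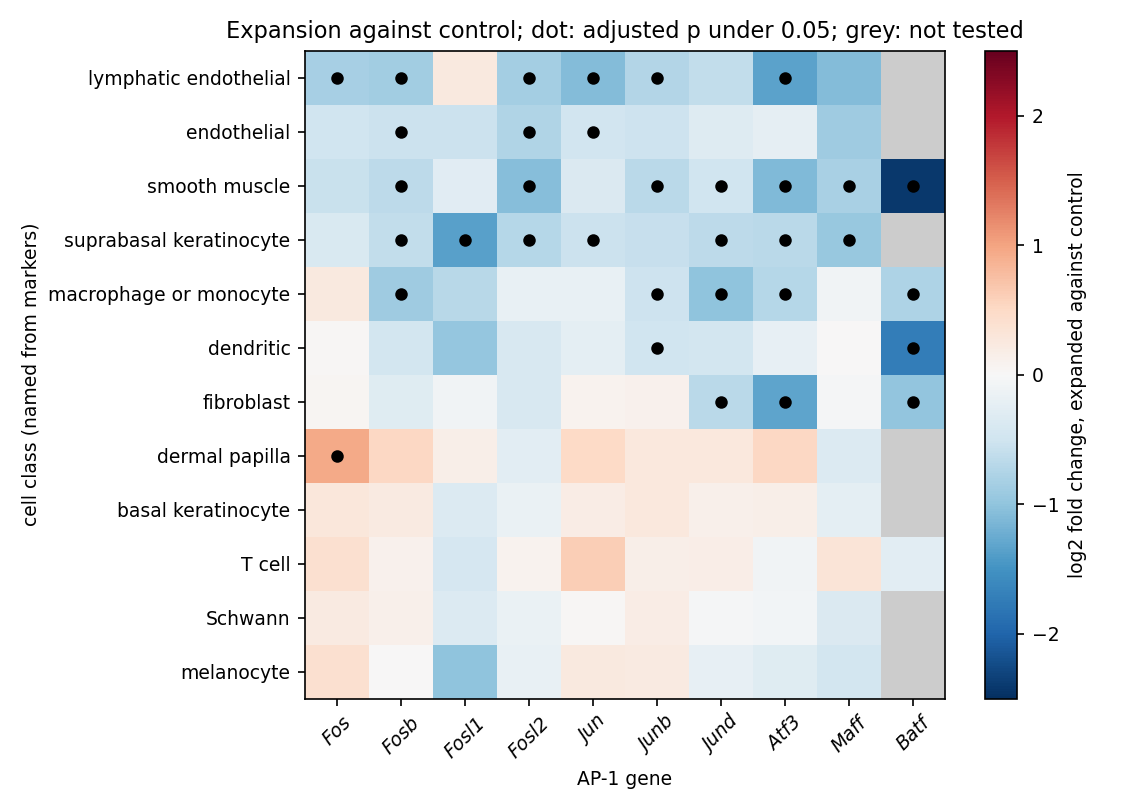
Log2 fold change of each AP-1 gene (columns) in expanded against control libraries for the 12 tested classes (rows), with a dot where the adjusted p was under 0.05 and grey where the gene was below the count filter. The 33 lower calls sit in the upper 7 rows, the single higher call is Fos in dermal papilla cells (0.94), and the 4 lowest rows hold no dot.

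Lymphatic endothelium, the class with the highest control levels of Fos and Jun, had 6 of 9 tested members lower (Fos, Fosb, Fosl2, Jun, Junb and Atf3) against 5.06% of all tested genes lower in that class. The median log2 fold change of the 9 members was -0.85 and that of all tested genes 0.00. Of a list of other immediate early genes, 14 of 23 tested were lower and 1 higher, and 6 of 10 heat shock genes were lower. Their summed levels were lower in all 5 pairs: 20421 to 28369 CPM in control and 10727 to 22455 in expanded libraries for immediate early genes, and 8033 to 9803 against 4395 to 6859 for heat shock genes. Cells of the expanded arm were also deeper, with a median of 4483 to 7328 UMIs per cell against 3174 to 4787, and summed fibroblast markers ran from 1174 to 14612 CPM in control and 98.7 to 10474 in expanded libraries. The part of these differences in the result was not tested. The count of 6 fell to 0 without the control or without the expanded library of day 4, and to 0 when hashed mice replaced libraries as units. That fit lacked the libraries of day 1 round 1 and called 6 genes in the whole class, against 729 with libraries. Its log2 fold changes were -1.44 for Fos, -1.47 for Jun, -1.30 for Atf3, -0.88 for Fosb, -0.93 for Junb and -0.50 for Fosl2.

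In blood vessel endothelium 3 of 9 members were lower, Fosb, Fosl2 and Jun, against 5.60% of all genes. With the replicate block the count was 6: Fosl1, Junb and Maff were added, whose adjusted p without the block was 0.147, 0.0529 and 0.0735. In this class 13 of 25 other immediate early genes and 8 of 10 heat shock genes were lower, with sums lower in all 5 pairs (16592 to 18817 against 9698 to 14060 CPM, and 6836 to 9182 against 4627 to 5920). The median UMI count per cell was 3630 to 7227 in control and 8740 to 11560 in expanded libraries. Summed adipocyte markers were lower in all 5 pairs (4744 to 15938 CPM in control and 1173 to 5880 in expanded libraries, with 3 to 4 of the 5 markers at 0 in each), as were dendritic (138 to 411 against 72.5 to 236) and basal keratinocyte markers (801 to 1065 against 507 to 951). Fabp4, 1 of the 5 adipocyte markers, was a leading gene of both clusters of this class, so the adipocyte sum need not stand for adipocyte RNA. Fibroblast markers were lower in 4 of 5 pairs (1030 to 2794 against 24.2 to 4368). The part of any of these in the result was not tested. Leaving out the day 2 round 1 control library, either expanded library of day 2, or either library of day 4 left 1 call, and leaving out the day 2 round 2 control library gave 6.

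Smooth muscle had 7 of 10 members lower (Fosb, Fosl2, Junb, Jund, Atf3, Maff and Batf) against 9.04% of all genes. Batf, which passed the filter there through control libraries only, is 1 of the 7. Of the other lists, 9 of 25 other immediate early genes were lower and 1 higher, and 3 of 10 heat shock genes were lower. The heat shock sum was lower in all 5 pairs (6345 to 8036 against 4240 to 7335 CPM) and the median UMI count per cell was 4542 to 6166 against 7153 to 13895. The immediate early sum was lower in 4 of 5 pairs (18565 to 22216 against 9492 to 21136 CPM). What these shifts contribute to the smooth muscle result was not tested. The count of 7 members fell to 3 without either library of day 4.

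Suprabasal keratinocytes likewise had 7 of 9 members lower (Fosb, Fosl1, Fosl2, Jun, Jund, Atf3 and Maff) against 11.1% of all genes, and the count was 7 to 9 whichever library was left out. The class was mixed, so this is not a result of suprabasal cells alone. It held 1957 cells, but 397 cells were named suprabasal at resolution 2 and 476 with members allowed in clustering. Suprabasal markers summed to 2977 to 13651 CPM in its control libraries, against 962 to 2138 in the basal class. Of other immediate early genes 14 of 25 were lower and 1 higher, and of heat shock genes 7 of 10 were lower and 1 higher, with sums lower in all 5 pairs (10937 to 16594 against 8859 to 10747 CPM, and 5709 to 7943 against 4644 to 5462). The median UMI count per cell was 8808 to 11876 in control and 13972 to 19227 in expanded libraries. The 7 basal keratinocyte markers summed to 12551 to 16058 CPM in control and 16764 to 21076 in expanded libraries, higher in every pair. In the basal class itself they summed to 10853 to 19935 and 18783 to 24132. Fibroblast markers in the suprabasal class summed to 421 to 5372 CPM in control and 15.5 to 345 in expanded libraries. What these shifts contribute was not tested.

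Macrophages or monocytes had 5 of 10 members lower (Fosb, Junb, Jund, Atf3 and Batf) against 10.3% of all genes. The class was made of different clusters in the arms: cluster 8, led by C1qc, C1qa and C1qb, held 62.0% of control and 5.16% of expanded cells, and cluster 21, led by Chil3 and Ccl6, held 4.51% and 57.9%. Within cluster 10 alone, which both arms filled (33.5% and 36.9%), none of the 5 was called: Batf was -0.75 (SE 0.21, adjusted p = 0.0585), Junb -0.30 (SE 0.12), Jund -0.06 (SE 0.17), Fosb 0.27 (SE 0.19) and Atf3 0.62 (SE 0.20). In that cluster Jun was higher, by 1.08 (SE 0.25, adjusted p = 0.0282), whereas over the whole class it stood at -0.19 (SE 0.29). Summed dendritic markers ran from 8004 to 22904 CPM in control and 1737 to 7413 in expanded libraries of the class, neutrophil markers from 49.6 to 122 and 261 to 1700. The mitochondrial share was lower in all 5 pairs (2.68% to 4.32% against 1.94% to 2.65%) and the median UMI count per cell higher (4150 to 7962 against 6982 to 14660). Of heat shock genes 5 of 10 were lower and 0 higher, and of other immediate early genes 5 of 24 were lower and 1 higher. The heat shock sum was lower in all 5 pairs (4606 to 5610 against 3255 to 3999 CPM) and the immediate early sum in 4 of 5 (12035 to 15475 against 9441 to 15706). What these shifts contribute to the macrophage result was not tested. The count of 5 fell to 1 without the control library of day 4, to 2 without the expanded library of day 4 or that of day 2 round 2, and to 3 without each of 5 others (both control libraries of day 1, the control library of day 2 round 1, the expanded libraries of day 1 round 2 and of day 2 round 1).

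Fibroblasts, with 890 to 3398 control and 285 to 1001 expanded cells per library, had 3 of 10 members lower, Jund, Atf3 and Batf, against 17.6% of all genes lower. Here too the arms differed in clusters: cluster 1, led by Col1a2 and Col1a1, held 40.7% of control and 6.57% of expanded cells, and clusters 0 and 6 held 17.1% and 2.05% of control but 35.8% and 21.8% of expanded cells. The sum of other immediate early genes did not move in 1 direction (13573 to 14703 against 10401 to 17826 CPM), nor did that of heat shock genes (3298 to 5003 against 3569 to 5043).

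Dendritic cells had 2 of 10 members lower, Junb and Batf, against 7.84% of all genes, and in 8 of the 10 fits that left out 1 library only 1 member was called, all but those without the expanded library of day 1 round 2 or the control library of day 2 round 2. Summed macrophage markers in the dendritic class were lower in all 5 pairs (5609 to 10469 against 3166 to 6480 CPM), and their part in the result was not tested. Dermal papilla cells had Fos higher and no member lower, against 1.96% of all genes higher.

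In 4 classes edgeR called no member: Schwann cells (0.368% of all genes called in either direction), T cells (0.246%), basal keratinocytes (4.04%) and melanocytes (1.52%). DESeq2 called 0 members in each of these as well. At an unadjusted p under 0.05 there were 2 members in T cells, Jun at 0.62 (SE 0.24) and Maff at 0.32 (SE 0.15), and 0 in each of the other 3. Of all genes 11.0% lay under that p in T cells, 10.0% in Schwann cells, 22.1% in basal keratinocytes and 12.0% in melanocytes. Control and expanded libraries overlapped for every member tested in those classes. Without the control or the expanded library of day 1 round 2, 1 member was called in melanocytes, Atf3. Cluster 25 held 26.8% of control and 5.29% of expanded basal keratinocytes, and within cluster 27, which held the rest, no member was called either, with estimates from -0.06 (Junb) to -0.47 (Maff). A p that misses the threshold does not show that the levels were alike.

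**Figure D3:**
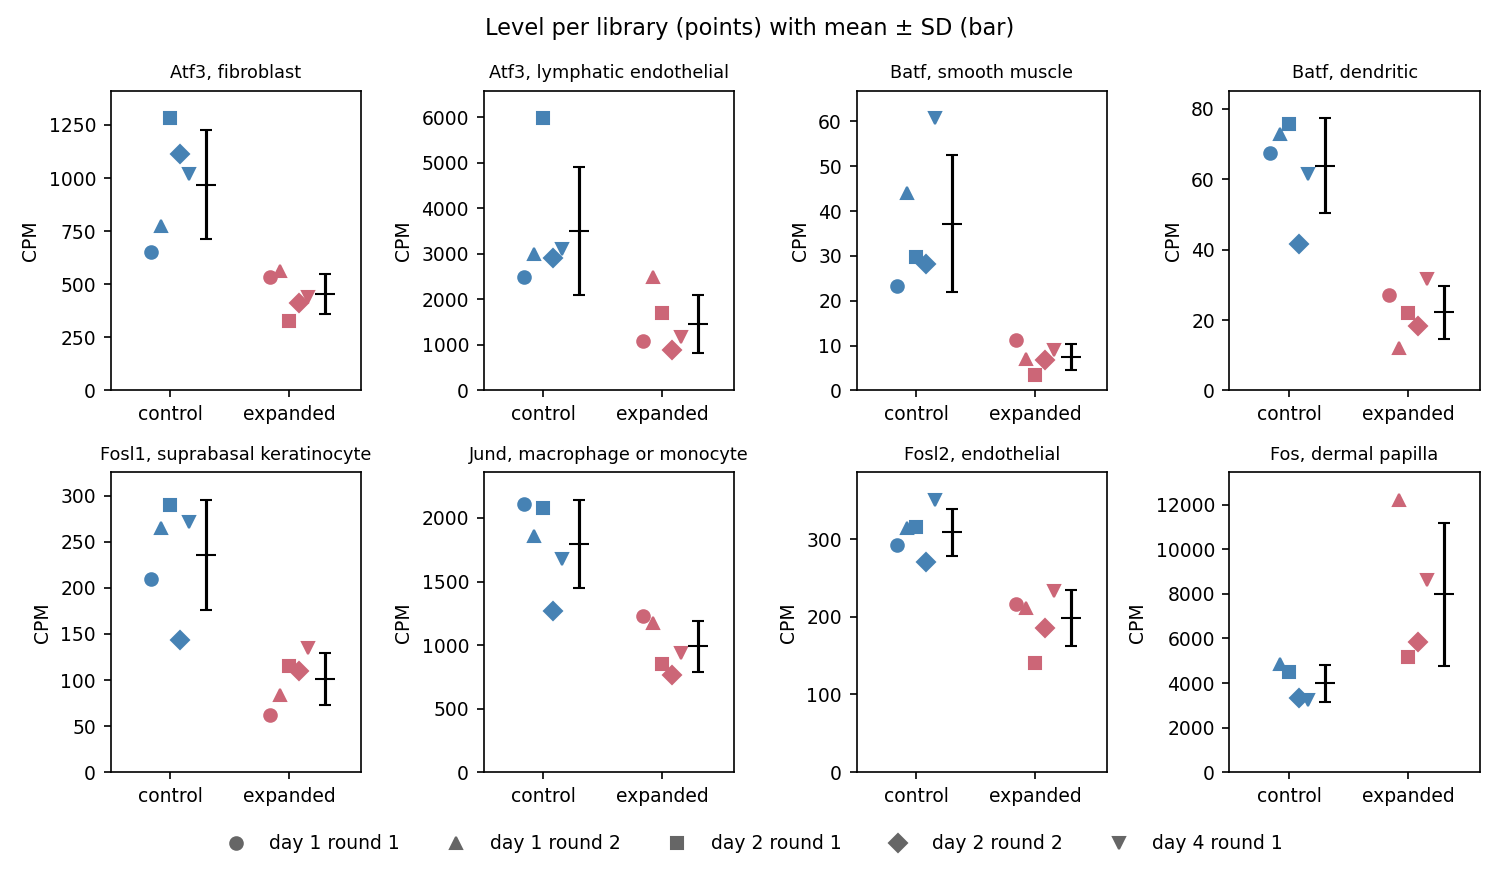
CPM per library (points, shaped by day and round) with mean ± SD for 8 pairs of a gene and a class, control on the left of each panel and expanded on the right. In 7 panels the expanded libraries lie lower and the arms do not overlap. In the panel of Fos in dermal papilla cells the 4 expanded libraries lie between 5188 and 12232 CPM, above the highest control library at 4868.

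Fos itself moved in opposite directions in 2 classes. In dermal papilla cells, the signalling fibroblasts at the base of the hair follicle, the 4 control libraries with enough cells read 4868, 4500, 3337 and 3217 CPM and the 4 expanded ones 12232, 5188, 5847 and 8639. All expanded libraries were above all control libraries, and the log2 fold change was 0.94 (SE 0.19, adjusted p = 0.0131). The control library of day 2 round 1 had 20 cells of this class. Without that library Fos was 1.11 and 2 members were called, and the call of Fos was lost without either library of day 1 round 2 (0.82 in both fits) or either library of day 4. Fibroblast markers in this class summed to 3484 to 20185 CPM in control and 2047 to 4661 in expanded libraries.

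In lymphatic endothelium Fos read 8487, 7002, 10452, 10447 and 9175 CPM in control and 7951, 8741, 4176, 4968 and 3386 in expanded libraries. The arms overlapped on day 1 and were apart on days 2 and 4, and over all days the log2 fold change was -0.83 (SE 0.23, adjusted p = 0.0302), a call that was lost without any 1 library of day 2 or day 4. In the other 10 classes Fos was not called, with estimates from -0.56 (SE 0.22) in smooth muscle to 0.41 in T cells (SE 0.20) and melanocytes (SE 0.24). In fibroblasts it stood at 0.05 (SE 0.22) and in macrophages at 0.25 (SE 0.27).

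Fosb, a Fos paralogue with a stimulus-induced short form, was lower in 5 classes. In lymphatic endothelium the control libraries held 4530, 4477, 5135, 4067 and 4653 CPM and the expanded ones 2946, 4318, 1693, 2650 and 2362, lower in every pair, with overlap through day 1 round 2 alone (log2 fold change -0.86, SE 0.20, adjusted p = 0.014). In macrophages the values were 1468, 1264, 1219, 740 and 1011 against 1240, 801, 492, 417 and 635 (-0.88, SE 0.20, adjusted p = 0.0168). Suprabasal keratinocytes (-0.62, SE 0.14), smooth muscle (-0.66, SE 0.17) and blood vessel endothelium (-0.53, SE 0.13) had smaller falls. Outside those classes Fosb ranged from -0.46 in dendritic cells to 0.52 in dermal papilla cells and was not called. The lymphatic call of Fosb was lost without either library of day 4, and the smooth muscle call without any 1 library of day 2 or day 4. Its endothelial call was lost without the same libraries except the control library of day 2 round 2, and also without the day 1 round 1 control library. In macrophages it was lost without either library of day 4 or the expanded library of day 2 round 2. Hashed mice as units gave -0.35 in endothelium, with adjusted p = 0.177.

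Fosl1 fell in suprabasal keratinocytes, where its control levels were high. With the replicate block it was also called in blood vessel endothelium (-0.58, adjusted p = 0.0256). In suprabasal keratinocytes the 5 control libraries read 210, 265, 290, 143 and 272 CPM and the 5 expanded libraries 61.8, 84.2, 115, 110 and 135. No expanded library reached the lowest control library, and the log2 fold change was -1.36 (SE 0.22, adjusted p = 0.00159), called whichever library was left out. In basal keratinocytes the estimate was -0.34 (SE 0.33), lower in all 5 pairs but with overlap (132 to 242 against 58.3 to 239 CPM). Those 2 classes were not tested against each other.

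Fosl2 was lower in 4 classes. Blood vessel endothelium held 292, 314, 315, 271 and 351 CPM in control and 217, 211, 141, 186 and 233 in expanded libraries. These arms were fully apart, at -0.76 (SE 0.13, adjusted p = 0.0051), although the thinned fit gave -0.49 with adjusted p = 0.0819. Smooth muscle went from 424, 450, 284, 300 and 495 to 213, 299, 132, 162 and 198 (-1.07, SE 0.14, adjusted p = 0.00145), lower in every pair and kept whichever library was left out. Lymphatic endothelium (-0.85, SE 0.21) and suprabasal keratinocytes (-0.72, SE 0.17) fell by similar amounts, and in both the thinned fit lost the call, at -0.42 and -0.51. The lymphatic call was also lost without the control library of day 1 round 1 or either library of day 4. In T cells, the class with the highest control level of Fosl2, the estimate was 0.08 (SE 0.12).

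Jun fell most in lymphatic endothelium. Control libraries there read 5536, 5720, 8076, 7024 and 5827 CPM and expanded libraries 3914, 5424, 2109, 3498 and 2042. The closest values, 5536 and 5424, both came from day 1, the arms did not overlap, and the log2 fold change was -1.09 (SE 0.23, adjusted p = 0.00834), lost without either library of day 4. Suprabasal keratinocytes (-0.53, SE 0.14, adjusted p = 0.015) and blood vessel endothelium (-0.48, SE 0.12, adjusted p = 0.0286) had smaller falls, both with arms apart. The endothelial values were 1862, 1842, 1827, 2247 and 1946 in control and 1659, 1796, 1101, 1424 and 1606 in expanded libraries, so the nearest libraries of the arms stood at 1827 and 1796. That call was lost without the control library of day 2 round 1, either expanded library of day 2 or either library of day 4, and with hashed mice as units the endothelial value was -0.10 and the suprabasal value -0.29. In 9 classes Jun was not called, and its median over the 12 classes was -0.08.

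Junb was lower in 4 classes, all with overlapping arms. In smooth muscle, the class with its highest control level, it read 4594, 4155, 4199, 4457 and 5199 CPM in control and 3818, 4288, 2161, 2123 and 3200 in expanded libraries (-0.68, SE 0.16, adjusted p = 0.0143). The overlap came from day 1, and the call was lost without either library of day 4. Lymphatic endothelium (-0.74, SE 0.20), macrophages (-0.52, SE 0.14) and dendritic cells (-0.50, SE 0.15, adjusted p = 0.046) were also lower. The dendritic call was kept in 1 of 10 fits that left out a library, the one without the control library of day 2 round 2, and the macrophage call in 2, that one and the fit without the expanded library of day 1 round 1. The lymphatic call was lost without the control libraries of day 1 round 1 and day 2 round 1, the expanded library of day 2 round 2 or either library of day 4, each left out alone. Fibroblasts gave 0.11 (SE 0.14) for Junb and T cells 0.14 (SE 0.11).

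Jund, although described as constitutive, fell in 4 classes. Macrophages read 2112, 1860, 2078, 1264 and 1675 CPM in control and 1227, 1175, 848, 761 and 940 in expanded libraries. The lowest control library, 1264, was above the highest expanded one, 1227, and the log2 fold change was -1.01 (SE 0.17, adjusted p = 0.00599), but within cluster 10 of that class it was -0.06 as given above. Fibroblasts read 2110, 2263, 2638, 2330 and 2491 against 1526, 2171, 1723, 1621 and 1617 (-0.68, SE 0.14, adjusted p = 0.00347), lower in every pair. Within single fibroblast clusters Jund was called in cluster 20 (-0.58, SE 0.15) and not in cluster 0 (-0.19, SE 0.13), cluster 7 (-0.69, SE 0.36) or cluster 33 (-0.33, SE 0.20). Suprabasal keratinocytes (-0.66, SE 0.15) were fully apart and smooth muscle (-0.50, SE 0.14) overlapped. The smooth muscle call was lost without the control libraries of day 1 round 2 and day 2 round 2, either expanded library of day 2 or either library of day 4, each left out alone.

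Atf3 was lower in 5 classes, and in fibroblasts it was called under every setting tried except within cluster 33. Fibroblast libraries read 652, 772, 1284, 1115 and 1021 CPM in control and 533, 563, 327, 410 and 440 in expanded skin. Every expanded library was below every control library, with the nearest values on day 1, and the log2 fold change was -1.31 (SE 0.20, adjusted p = 0.00077). It was also lower within cluster 0 (-0.77, SE 0.14, adjusted p = 0.00311), cluster 7 (-2.42, SE 0.47, adjusted p = 0.0141) and cluster 20 (-0.73, SE 0.15, adjusted p = 0.00297), and in cluster 33 it stood at -0.98 (SE 0.28, adjusted p = 0.0536). Cells of cluster 7 were shallow, with a median of 0.211 of their library's median UMI count. Clusters 1 and 6, which held 40.7% of control and 21.8% of expanded fibroblasts, had no fit of their own. With hashed mice as units the value for Atf3 over all fibroblasts was -1.29.

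In lymphatic endothelium Atf3 read 2489, 2992, 5985, 2910 and 3098 CPM in control and 1095, 2480, 1691, 881 and 1167 in expanded libraries. The arms did not overlap and the control library of day 2 round 1 was the highest (-1.34, SE 0.30, adjusted p = 0.0109, lost without either library of day 4). Smooth muscle went from 1395, 1686, 2424, 1982 and 2049 to 1276, 1472, 719, 625 and 822 (-1.11, SE 0.24, adjusted p = 0.0099), with overlap through day 1. Suprabasal keratinocytes also fell (-0.67, SE 0.16), although hashed mice as units gave -0.43 with adjusted p = 0.119. Macrophages fell as well (-0.72, SE 0.21), a call kept in 2 of 10 fits that left out a library, those without the expanded library of day 1 round 1 or the control library of day 2 round 2. Basal keratinocytes, where the control level was highest, read 3459 to 5460 CPM in control and 2856 to 5017 in expanded libraries (0.14, SE 0.16).

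Maff, a small Maf protein that pairs with larger bZIP factors, fell in 2 classes. In suprabasal keratinocytes the control libraries read 145, 112, 227, 115 and 137 CPM and the expanded ones 80.8, 70.2, 88.4, 83.6 and 72.2. The arms were apart and the log2 fold change was -0.95 (SE 0.17, adjusted p = 0.00254), whereas the thinned fit gave -0.55 with adjusted p = 0.082. In smooth muscle Maff was -0.82 (SE 0.21, adjusted p = 0.02), again short of the threshold when thinned (-0.68, adjusted p = 0.0575) and lost without either library of day 4. Lymphatic endothelium, where its control level was highest, had a larger estimate, -1.09 (SE 0.35), that missed the threshold at adjusted p = 0.0553. With the replicate block Maff was called there (-1.03, adjusted p = 0.0065) and in blood vessel endothelium (-0.89, adjusted p = 0.0176).

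Batf passed the count filter in 5 of the 12 classes, which do not stand for the others. By the test it was lower in dendritic cells, macrophages and fibroblasts. Dendritic cells held 67.6, 72.9, 75.8, 41.5 and 61.5 CPM in control and 27.2, 12.1, 22.1, 18.2 and 31.6 in expanded libraries. The highest expanded library was below the lowest control library (log2 fold change -1.73, SE 0.26, adjusted p = 0.00439), and cluster 9, which held 95.2% of control and 97.2% of expanded dendritic cells, gave -1.71 (SE 0.27). The dendritic class had 178 to 568 control and 46 to 136 expanded cells per library.

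In smooth muscle Batf read 23.3, 44.0, 29.7, 28.1 and 60.8 CPM in control and 11.2, 6.96, 3.33, 6.85 and 9.11 in expanded libraries, from 191 and 29 UMIs. The arms were apart. Since no expanded library reached the filter's threshold, a gene with these counts had to come out lower, so the log2 fold change of -2.42 (SE 0.28) is a description, and too few counts remained for a thinned fit. Between 12.7% and 25.3% of control and 3.90% and 9.09% of expanded smooth muscle cells had a Batf UMI, at median depths of 4542 to 6166 and 7153 to 13895 UMIs. Thinned to 2000 UMIs these shares were 5.11% to 11.5% and 0% to 3.17%. In basal keratinocytes, the class with the lowest control mean of Batf, the unthinned shares were 0% to 0.476% and 0% to 1.68%. The medians there were 6331 to 12058 and 9916 to 14554 UMIs. T cell markers summed to 8.11 to 58.3 CPM in control smooth muscle and 11.2 to 138 in expanded smooth muscle, lower in 1 of 5 pairs, with up to 4 and up to 5 of the 7 markers at 0. Dendritic markers summed to 24.3 to 933 and 11.1 to 400, lower in 4 of 5 pairs, with 3 to 7 and 4 to 7 of the 10 at 0. What these markers contribute to the Batf result was not tested.

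Macrophages held 42.3, 34.2, 28.4, 33.5 and 40.2 CPM of Batf in control and 20.7, 18.3, 25.6, 22.8 and 26.0 in expanded libraries. The lowest control library stood at 28.4 and the highest expanded one at 26.0 (log2 fold change -0.77, SE 0.15, adjusted p = 0.0101), and the call was lost without the control library of day 4. Fibroblasts read 10.5, 6.97, 8.49, 6.63 and 7.29 against 4.34, 4.76, 4.74, 4.44 and 6.07 (-0.98, SE 0.21, adjusted p = 0.00442), apart again, although thinned cells gave -1.08 with adjusted p = 0.0717 and neither single cluster with a value called it, cluster 20 at -0.88 (SE 0.47) and cluster 0 at -0.38 (SE 0.34). In fibroblasts the dendritic markers were also lower in all 5 pairs, 34.5 to 127 against 13.6 to 33.3 CPM, and the T cell markers in 3 of 5. T cells, with 42.0, 82.3, 123, 91.9 and 112 against 43.5, 53.6, 133, 92.2 and 98.6 CPM, gave -0.26 (SE 0.20), and their arms overlapped throughout.

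By day, the expanded arm was compared between day 2 and day 1 in 9 classes, with 2 libraries per day. No member passed there in 86 tests with edgeR (0.119% of all genes of these classes were called), although 26 had an unadjusted p under 0.05. At that threshold all genes ran by class from 589 of 8483 in lymphatic endothelium to 1541 of 9595 in dendritic cells. In the control arm 11 of 86 had an unadjusted p under 0.05. All genes ran there from 432 of 11257 in blood vessel endothelium to 2154 of 12636 in basal keratinocytes. Of the 86, 1 was called, against 0.172% of all genes: Fosl2 in basal keratinocytes, where 1.17% of all genes were called. It read 168 and 173 CPM on day 1 and 59.0 and 77.7 on day 2 (log2 fold change -1.20, SE 0.26, adjusted p = 0.0488), and the call was lost without any 1 of those 4 libraries or the expanded library of day 4. DESeq2 was not run on the day comparisons.

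Whether the effect of expansion differed between day 2 and day 1 was tested directly, and 0 of 86 were called by edgeR, with 16 at an unadjusted p under 0.05 and 0.00101% of all genes called. For all genes the unadjusted counts ran from 262 of 8483 in lymphatic endothelium to 1494 of 12636 in basal keratinocytes. The Fos values by day are given because they differ in sign. In dendritic cells Fos read 1116 and 1465 CPM in control and 2974 and 2638 in expanded libraries on day 1, then 1734 and 1389 against 895 and 1133 on day 2. The expanded libraries were above the control ones on day 1 and below them on day 2, a difference of -1.64 by edgeR (SE 0.35, adjusted p = 0.498). In fibroblasts day 1 gave 2536 and 2675 against 5286 and 5020, and day 2 gave 2736 and 4505 against 2182 and 3418 (-1.15, SE 0.40, adjusted p = 1.000). Smooth muscle (-1.23, SE 0.31) and lymphatic endothelium (-1.28, SE 0.36) had estimates of the same sign, and none passed. Atf3 in dendritic cells (-1.80, SE 0.50), smooth muscle (-1.42, SE 0.32) and fibroblasts (-1.14, SE 0.29) likewise missed. Day 4 had 1 library per arm, so it has values and no test of its own.

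**Figure D4:**
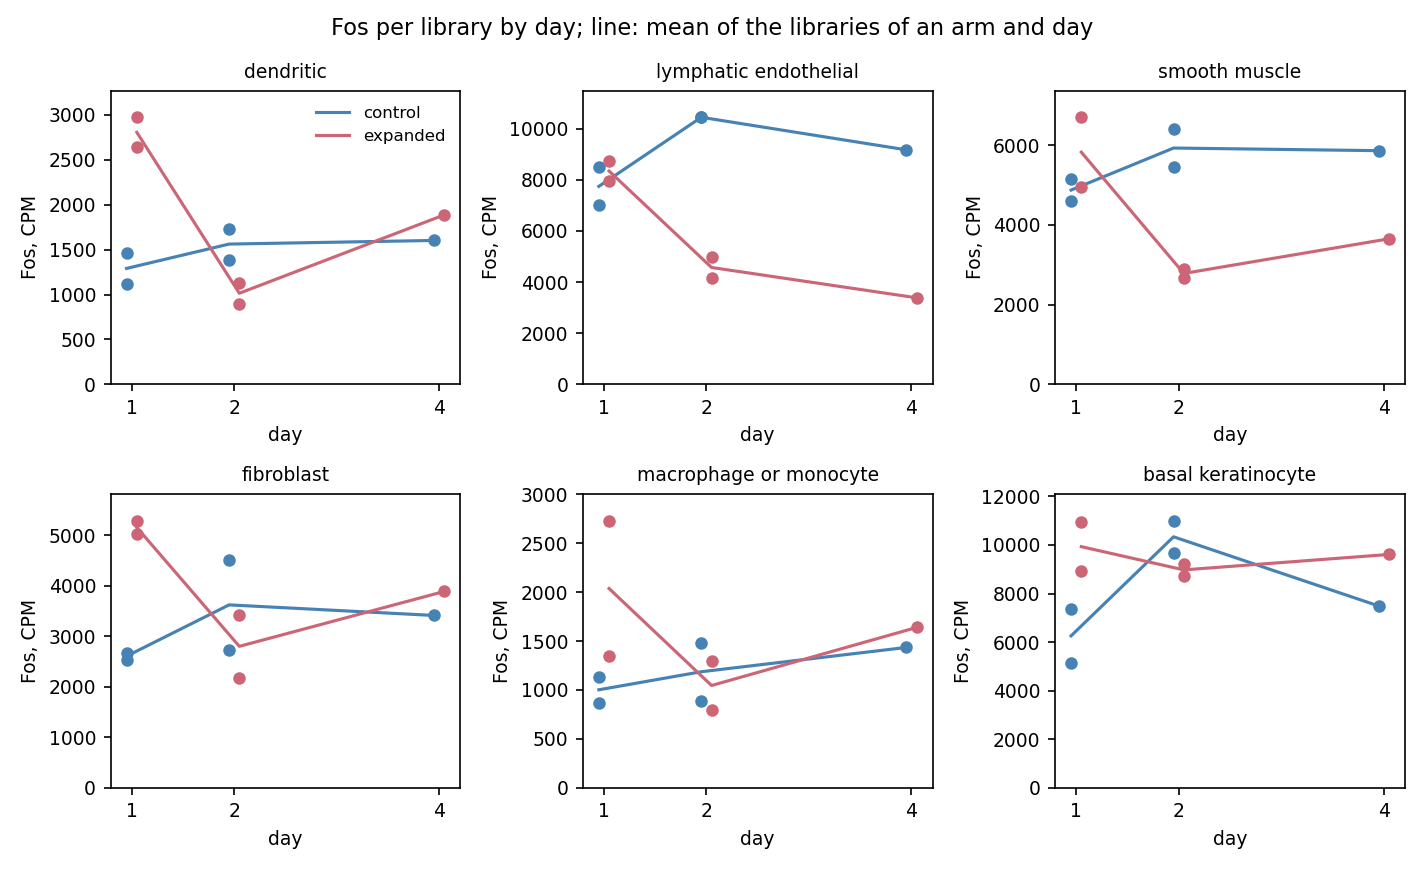
Fos in CPM per library (points) on days 1, 2 and 4 in 6 classes, with a line through the mean of an arm on each day. In dendritic cells and fibroblasts the expanded libraries of day 1 (2638 and 2974, 5020 and 5286 CPM) lie above the control ones, and in lymphatic endothelium and smooth muscle the expanded libraries of days 2 and 4 lie below the control ones. None of these differences between days passed the adjusted test.

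The effect of expansion in fibroblasts was then set against that in 3 other classes of the same libraries, with each library as a term. Blood vessel endothelium differed for 4 members (7.16% of all genes were called), in both directions. The difference was 1.14 for Atf3 (SE 0.20, adjusted p = 0.00391) and 0.43 for Jund (SE 0.12, adjusted p = 0.0432), which fell in fibroblasts and were -0.22 and -0.33 in endothelium. It was -0.49 for Jun (SE 0.13, adjusted p = 0.0304) and -0.46 for Fos (SE 0.13, adjusted p = 0.0402), which were near 0 in fibroblasts. Suprabasal keratinocytes differed for Fosl1, by -1.13 (SE 0.21, adjusted p = 0.00604), and Maff, by -0.86 (SE 0.20, adjusted p = 0.0191), with 6.40% of all genes called. Macrophages differed for 0 members by edgeR, with 3 of 10 at an unadjusted p under 0.05, against 3865 of 13542 genes. Of all genes 11.9% were called there. DESeq2 was not run on these differences. The Atf3 and Fosl1 differences were called whichever library was left out, that of Maff was lost without the control library of day 1 round 1, and those of Fos, Jun and Jund were lost in 8, 7 and 9 of 10 such fits. The total of 6 fell to 2 when the day 1 round 1 control library was left out and to 3 without the control library of day 4 or the expanded library of day 2 round 2.

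Other genes of the pathway were read from lists of relatives, kinases, phosphatases and reported targets. The bZIP relatives were lower in the largest numbers in the 7 classes that had members lower, given here with the share of all genes lower. They were 10 of 22 tested in dendritic cells (7.84%), 10 of 23 in fibroblasts (17.6%) and 10 of 20 in suprabasal keratinocytes (11.1%). Another 2 relatives were higher in fibroblasts and 1 in suprabasal keratinocytes. Macrophages had 8 of 23 lower (10.3%) and blood vessel endothelium 7 of 23 (5.60%). Lymphatic endothelium had 5 of 19 relatives lower (5.06%) and smooth muscle 5 of 21 (9.04%). Their medians ran from -0.69 in dendritic cells to -0.28 in smooth muscle, against 0.00 to 0.02 for all genes. Creb5, a CREB-related factor, fell by 2.45 in fibroblasts (SE 0.26), from a mean of 262 to 58.2 CPM. Jdp2, a Jun-dimerizing repressor, went from 184 to 66.9 CPM there (-1.70, SE 0.16). Bach1, which competes with other bZIP factors at antioxidant elements, fell in lymphatic endothelium (-0.93, SE 0.27), macrophages (-0.70, SE 0.16) and dendritic cells (-1.22, SE 0.20).

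Of kinases upstream of AP-1, in fibroblasts 8 of 22 were lower and 3 higher (17.6% and 16.8% of all genes). In smooth muscle 6 of 18 were lower and 0 higher (9.04% and 6.78%). Among the other 10 classes the most lower was 4 of 21, in suprabasal keratinocytes, with 2 higher (11.1% and 12.0% of all genes). Map3k1, a kinase above the JNK arm, was lower in lymphatic endothelium (-0.97, SE 0.22) and smooth muscle (-1.25, SE 0.36). The MAP kinase phosphatases, which are themselves induced by the pathway and switch it off, were higher in fibroblasts for 4 of 10 (1 lower), against the same 16.8% and 17.6% of all genes, among them Dusp2 (2.64, SE 0.42), Dusp4 (1.59, SE 0.25) and Dusp6 (0.93, SE 0.17), from control means of 2.49, 1.76 and 9.36 CPM. In suprabasal keratinocytes 5 of 9 phosphatases were lower (11.1% of all genes), among them Dusp1 (-0.64, SE 0.13), from 1388 to 959 CPM.

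Of genes reported as AP-1 targets, in fibroblasts 15 of 25 tested were higher, against 16.8% of all genes, and 0 lower, with a list median of 0.85 against 0.02 for all genes, in the class where Atf3, Jund and Batf fell. Tnc, the matrix protein tenascin C, went from 101 to 1908 CPM (4.33, SE 0.51). Timp1, an inhibitor of matrix proteases, went from 149 to 1149 (2.83, SE 0.39), and the growth factor gene Ereg from 8.78 to 205 (4.03, SE 0.48). In dermal papilla cells 5 of 18 targets were higher, against 1.96% of all genes, and 0 lower (median 0.97 against 0.01), among them Tnc (1.84, SE 0.28) and Hbegf (1.20, SE 0.28). Timp1 was also higher in dendritic cells, smooth muscle and both endothelial classes, whereas Il6 and Mmp3 were lower in lymphatic endothelium (-2.96, SE 0.41 and -3.13, SE 0.45). Expanded libraries of that class held little Il6, so Il6 may have passed the count filter through control libraries alone. Its lymphatic call is therefore given as a description. In T cells Timp1 had a mean of 3.28 CPM in control and 55.1 in expanded libraries. It could pass the count filter there only through expanded libraries, so its call in T cells is given as a description. Macrophages had 4 of 24 targets higher, with Spp1 at 4.16 (SE 0.55), and 6 lower, with Hbegf at -2.25 (SE 0.40), against 8.23% of all genes higher and 10.3% lower.

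Across 140 units of a class and a library, each member was finally compared with 10877 genes by Pearson correlation of log2(CPM + 1), as a description over points that share libraries and classes. Fos was most like Fosb (0.85), Jun (0.79) and Ier2 (0.78). Fosb was most like Fos, Nfatc1 (0.79) and Eif4a2 (0.78), and Jun like Hes1 (0.84), Egr1 (0.84) and Nfia (0.80). Junb had Mylip (0.73), Ppp1r15a (0.70) and Csrnp1 (0.68), and Jund had Gem (0.69), Gabbr1 (0.68) and Dnajb9 (0.68). Fosl2 was most like Tnfaip3 (0.76), Ripor2 (0.75) and Nr4a3 (0.72), Atf3 like Pthlh (0.72), Foxc1 (0.70) and Kank1 (0.68), and Fosl1 like Itpkc (0.71), Cecr2 (0.65) and Epha4 (0.65). Batf was most like Glipr2 (0.81), Cd37 (0.81) and Dennd1c (0.80), and among the members its values ran against those of Jun, at -0.69.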

How the data were processed

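Droplet 3′ mRNA libraries of sorted mouse skin cells were analysed. The authors deposited UMI counts for each gene in each barcode, and the submitters' processing notes name Cell Ranger 6.1.2 and mm10. From these counts, barcodes were dropped below 200 genes, below 500 UMIs or above a mitochondrial share of 10%, and doublets were removed with Scrublet and by more than 1 hashtag (8 hashing samples). Cells were clustered with scanpy 1.11.5 and leidenalg 0.10.2 in Python 3.11.15 (2000 variable genes without the members, 30 components, 15 neighbours, resolution 1). Clusters were named from marker genes, and details of the naming rule were set while the clusters were examined. The 10 members and all gene lists were chosen with earlier results of these data known.

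Counts were summed per class and library and tested with edgeR 4.0.16 in R 4.3.3 (TMM scaling, low-count filter, quasi-likelihood test with day as covariate, Benjamini-Hochberg adjustment over all genes tested in a class). Units needed 20 cells, and classes 4 such libraries per arm. The standard error is the absolute log2 fold change divided by the square root of F. Alternatives were DESeq2 1.42.0, RLE scaling, no count filter, a 5% mitochondrial limit, members allowed in clustering, resolution 2, cells thinned to 2000 UMIs (shallower cells left out), 28 hashed mice as units, each library left out, and a replicate block. Single clusters were added after the data were seen. Mice of an arm and round went into 1 reaction, so the p-values measure the spread between pooled libraries. Sequencing rounds are named in the labels, so day and round pair the libraries: the deviations of rounds correlated between arms at 0.04 to 0.38 (median 0.17) over 9 classes on days 1 and 2. UMI depth is given in the report, and counting error is larger in classes with few cells.

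All 10 members are described. From every other list at most 4 genes per class were named, those with the largest absolute log2 fold change among called genes that moved the same way in every pair, and the 3 genes most like each member by correlation. The genes most like Maff are not reported here. The procedure was tested on simulated data, in which 200 genes were changed 2-fold: it recovered 67% of them for fibroblasts (13848 genes), 47% for lymphatic endothelium (7555 genes) and 52% for T cells (8944 genes).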

Additional observations from a re-analysis of the deposited data

Results flagged for a closer look

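Of 68 groups of libraries tested for a value far from the others, 5 held such a library, and chance flags about 1 in 20 groups. Jun in blood vessel endothelium reached 2247 CPM in 1 control library, that of day 2 round 2, above the next control value of 1946. In the control library of day 2 round 1, Jund in suprabasal keratinocytes was 2439 CPM (next 1431), Atf3 in suprabasal keratinocytes 5810 (next 3446) and Atf3 in lymphatic endothelium 5985 (next 3098). That library held the fewest UMIs. Batf in fibroblasts was 6.07 CPM in the expanded library of day 4, above the other expanded libraries (4.34 to 4.76).

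The effect of expansion differed from that in fibroblasts for 6 pairs of a member and a class by edgeR's test of the difference itself. In blood vessel endothelium the difference was 1.14 for Atf3 (SE 0.20, adjusted p = 0.00391), 0.43 for Jund (SE 0.12, adjusted p = 0.0432), -0.49 for Jun (SE 0.13, adjusted p = 0.0304) and -0.46 for Fos (SE 0.13, adjusted p = 0.0402). In suprabasal keratinocytes it was -1.13 for Fosl1 (SE 0.21, adjusted p = 0.00604) and -0.86 for Maff (SE 0.20, adjusted p = 0.0191).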

How the results depend on the processing

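All 34 calls were kept by DESeq2 and with the replicate block, which raised the endothelial count from 3 to 6 and added Jund and Maff in lymphatic endothelium and Junb in suprabasal keratinocytes. The endothelial count was also 6 with DESeq2 and 7 without the count filter. Without that filter 1 member was called in T cells, 3 in the control day comparison, 10 in the expanded day comparison and 4 in the day effect. In dendritic cells 1 member was called with the 5% mitochondrial limit, with members allowed in clustering or at resolution 2, and in basal keratinocytes 1 at resolution 2. Hashed mice as units gave 0 calls in lymphatic endothelium, where that fit called 6 genes in all against 729 with libraries and Fos was -1.44 and Jun -1.47, and kept 16 of the 26 calls that could be refitted. The mouse fits lacked both libraries of day 1 round 1, in which 0 cells were assigned to a mouse. Of 45392 cells, 21779 were assigned. These fits also treat mice of 1 reaction as separate units.

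Leaving out 1 library at a time gave counts of 1 to 3 in dendritic cells, 0 to 2 in dermal papilla cells, 1 to 6 in blood vessel endothelium, 0 to 8 in lymphatic endothelium, 1 to 5 in macrophages, 0 to 1 in melanocytes and 3 to 8 in smooth muscle. The control day count was 0 to 1, the expanded day count 0 to 3 and the count of class differences 2 to 8. Of the 34 calls, 16 were kept whichever library was left out. Within macrophage cluster 10, added after the data were seen, Atf3 was 0.62 and Fosb 0.27, reversed from the class. The cause of these changes was not tested.

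RLE scaling moved the median of all genes by at most 0.02. Fits could not be made for dermal papilla cells and melanocytes when thinned, at the 5% limit or over mice. Dermal papilla and suprabasal cells had no fit under the other clusterings, where both classes were still named but held fewer cells. Fits were also missing for Schwann, basal and smooth muscle cells over mice, and for thinned Batf in smooth muscle.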
